A study of Mus musculus with 2 samples.

Results

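The genes described here are 10 inducible brakes on mitogen-activated protein (MAP) kinase signalling, taken by symbol from the 15574 genes with a read in either library. They are 6 dual specificity phosphatase genes (Dusp1, Dusp2, Dusp4, Dusp5, Dusp6 and Dusp10), 2 Sprouty genes (Spry1 and Spry2) and 2 Sprouty-related genes (Spred1 and Spred2). All 10 had reads in both libraries, and 9 reached the mean level of 1 CPM (reads scaled to library size) that was required of a gene to be tested. Spry2 was below it. Messenger RNA came from mouse Th17 cells, helper T cells known for making interleukin 17. Naive T cells of the C57BL/6 background, labelled either CREB KO or wildtype, were grown for 6 days with IL6, TGFb, IL1b and IL23 and then stimulated for 4 h on plate-bound CD3. The comparison asks which genes depend on CREB, the cyclic AMP-responsive transcription factor encoded by Creb1. How the deletion was made, and whether cells of several animals were pooled, is not stated in the labels.

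MAP kinases (ERK, JNK and p38) carry signals from the T cell receptor to the nucleus and are switched off when a dual specificity phosphatase removes the phosphates from their activation loop. Many of these phosphatase genes are themselves induced by MAP kinase signalling, which makes them negative feedback. Dusp1, Dusp2, Dusp4 and Dusp5 encode nuclear enzymes, Dusp6 encodes a cytoplasmic enzyme selective for ERK, and the product of Dusp10 is found in both compartments and prefers JNK and p38. Sprouty and Spred proteins act further up, where they restrain the activation of Ras and Raf, and Spred proteins bring the Ras inactivator neurofibromin to the membrane.

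Promoter letters were examined because CREB binds the cAMP response element. RefSeq promoters (GRCm38.p6, 250 bases before to 50 after the annotated start) were at hand for 9 of the 10 genes, all but Dusp4, with 1 start for each of the 9. The full element TGACGTCA was searched on both strands, together with TGACG, the shorter core that also lies inside the full element, the AP-1 motif TGANTCA, which differs from both inside its core, and TATAAA. The CArG box, the binding motif of serum response factor, was added after the Dusp5 sequence had been seen. The 3 stretches below show the matches that lie before the RefSeq start in these genes. Capitals mark the full element or the shorter core in each, and in Dusp5 also 2 abutting CArG boxes.
Dusp1, chr17:26508596-26508675, minus strand, bases -203 to -124 from the start: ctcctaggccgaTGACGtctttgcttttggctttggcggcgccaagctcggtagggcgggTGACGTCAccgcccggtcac
Dusp5, chr19:53529051-53529106, plus strand, bases -94 to -39 from the start: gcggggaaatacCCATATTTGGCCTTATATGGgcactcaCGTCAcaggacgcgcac
Spred2, chr11:19924379-19924407, plus strand, bases -63 to -35 from the start: ccgctgggaagaCGTCAtcgcttccgccc

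Dusp1 was the only 1 of the 9 promoters with the full element, at bases -143 to -136, and it held a separate TGACG at -191 to -187. The full element occurs in 1.79% of all 32851 RefSeq promoters of this length. Some genes have several promoters there, and by gene symbol the share is 2.03% of 27025. TGACG lay, on the opposite strand, at -55 to -51 in Dusp5, at -51 to -47 in Spred2 and after the start, at bases 6 to 10, in Dusp2. Of all promoters, 20.81% hold one (23.05% of gene symbols). All promoters include those of genes not tested here. Of the tested genes with a promoter at hand, 2909 held TGACG and 5003 did not, while 301 held the full element and 7611 did not. Both motifs were thus more frequent among tested genes than among all promoters. The CArG boxes of Dusp5 lay at -82 to -73 and -72 to -63, a motif found in 1.63% of promoters. None of the 9 held TGANTCA (7.81% of all promoters) or TATAAA (13.62%). A match is a run of letters and not a measured binding site. The 9 promoters were rich in G and C, with a median of 64.3% and 28 CpG dinucleotides. Over all promoters, again with those of untested genes, the medians were 52.7% and 7.

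Most of the genes are compact. In GENCODE M21 (GRCm38), the longest principal transcript had a median of 4 exons over the 10 genes, against 9 over the 9626 protein-coding genes tested, and a median span of 8735.5 against 20731.5 bases. Dusp2 spanned 2218 bases and Dusp1 2930 bases, while Dusp10, Spred1 and Spred2, the long exceptions, spanned 41256, 60906 and 98136. All 10 carried at least 1 copy of ATTTA, the core of AU-rich decay elements, in the 3' untranslated region. This holds for 67.0% of the 9563 tested protein-coding genes with such a region, and the density was 2.43 copies per kilobase against 1.81. Spred1 had the most copies (12, in 4330 bases), whereas Dusp2 and Dusp1 had 4 each in 581 and 690 bases. The genes lie on 9 chromosomes: Dusp1 on 17, Dusp2 on 2 (127336159 to 127338376), Dusp4 on 8 (34807297 to 34819894), Dusp5 on 19 (53529109 to 53542431), Dusp6 on 10 (99263231 to 99267489), Dusp10 on 1 (184013302 to 184075636), Spry1 on 3 (37639947 to 37644598), Spry2 on 14 (105891947 to 105896819), Spred1 on 2 (117121374 to 117182279) and Spred2 on 11 (19924375 to 20024026). The annotated gene Dusp1 runs from 26505590 to 26562128 because of distant exons, and its principal transcript ends at 26508519. These spans are of GENCODE, and its gene starts do not always coincide with the RefSeq starts used for the promoters. The Spred2 stretch printed above lies inside the GENCODE gene.

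The library labelled CREB KO held 23938112 counted reads and the wildtype library 26525471. There was 1 library per genotype, so no p-value can be given, and each difference lies between 2 libraries and not between genotypes. Intervals are 95% and cover counting error only. No molecular identifiers are described, so PCR copies may make even these intervals too narrow. Ratios are of the library labelled CREB KO over the wildtype library. The targeted gene, Creb1, had 25 reads in the library labelled CREB KO and 13 in the wildtype library (ratio 2.08, 1.04 to 4.51), so it did not bear out the label. At 1.04 and 0.491 CPM, Creb1 was near the floor in both libraries, so these few reads cannot check the genotype. The deleted part was not analysed here. Among Th17 markers, 7 of 7 were measured and all 7 had ratios below 1, the lowest being Il17f at 0.360. The T cell marker Cd3e had 10434 and 11102 reads, and Cd4 had 19552 and 23125. Of 11 markers of CD8 T, B, myeloid and NK cells, 5 had a listed count, with 287 and 286 reads in sum. Most of these were reads of the CD8 T cell marker Cd8b1 (234 and 237), while Cd79a had 26 reads in each library and Cd14 24 and 21. Cd8a, Ms4a1, Lyz2, Itgam, Ncr1 and Klrb1c had no listed count. Neither had the T cell gene Trac, nor Hras, Mapk9 and Myc of the pathway lists below. A gene without a listed count is therefore not shown to be silent. The part of the cell type markers in the results below was not tested. In bulk RNA, fewer cells expressing a gene and less RNA per cell cannot be told apart.

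Dusp2 and Dusp4 were the leading transcripts of the group. Levels are given as RPKM (reads per exon length and library total), the scale on which genes of different length can be compared. Dusp2, named PAC-1 for phosphatase of activated cells, stood at 77.2 RPKM (74.7 to 79.7) in the library labelled CREB KO and 67.1 (64.9 to 69.3) in the wildtype library. That is above 95.3% and 94.5% of the 13816 protein-coding genes with a count. Dusp4 followed at 53.1 (51.3 to 54.9) and 56.2 RPKM (54.5 to 58.0). Spry1, the leading Sprouty gene, came next in both libraries, at 27.6 (26.4 to 28.9) and 25.9 RPKM (24.8 to 27.1).

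The middle of the order was occupied by genes of 3 classes at close levels. Dusp5 had 21.6 RPKM (20.4 to 22.8) in the library labelled CREB KO and 18.4 (17.4 to 19.4) in the wildtype library. Dusp6 had 17.1 (16.2 to 18.0) and 14.2 (13.4 to 15.1), below its nuclear ERK-selective counterpart Dusp5 in each library on this length. With coding length the pair was close, Dusp6 standing above Dusp5 in the library labelled CREB KO (46.8 against 46.3 RPKM) and below it in the wildtype library (38.99 against 39.4). Spred2 had 12.9 RPKM (12.3 to 13.6) and 11.2 (10.6 to 11.8). Dusp1 had 12.8 RPKM (11.99 to 13.6) and 12.7 (12.02 to 13.5). In the library labelled CREB KO the levels of Spred2 and Dusp1 did not differ beyond counting error (level ratio 1.01, 0.933 to 1.10). In the wildtype library Dusp1 was above Spred2 by 1.14-fold (1.05 to 1.24).

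Lowest were Dusp10, Spred1 and, far below, Spry2. Dusp10 stood at 9.50 RPKM (8.81 to 10.2) in the library labelled CREB KO and 9.47 (8.81 to 10.2) in the wildtype library. Spred1 stood at 5.89 (5.52 to 6.27) and 4.95 RPKM (4.63 to 5.28). Spry2 had only 25 and 20 reads, or 0.5004 RPKM (0.324 to 0.739) and 0.361 (0.221 to 0.558), and lay under Spred1 by 11.8-fold (7.92 to 18.3) and 13.7-fold (8.81 to 22.5). The counted reads of the Sprouty pair were thus almost wholly those of Spry1. Since some genes had no listed count, a low count is not shown to mean low expression. Apart from Spred2 and Dusp1 in the library labelled CREB KO, each neighbour in the order was separated from the next by more than counting error. Levels and order depended on the length used. With the length of the principal transcript in place of all annotated exons, Dusp1 was at 21.2 RPKM in both libraries and Spred2 at 20.9 and 18.1, and Dusp6 went from place 5 to place 7 in both.

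**Figure D1:**
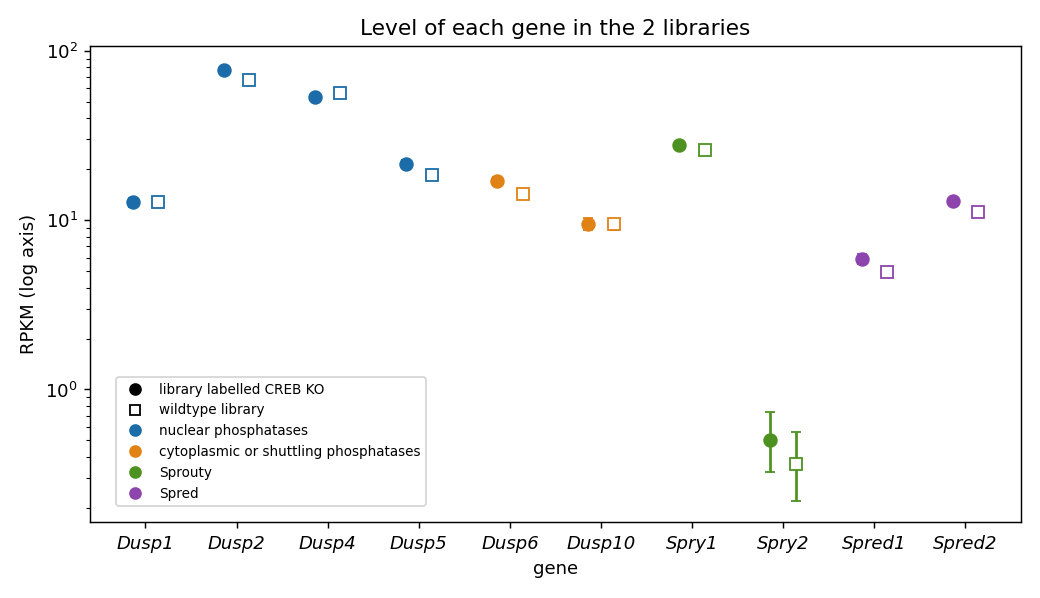
Level of each gene in RPKM (log axis) in the library labelled CREB KO (filled circles) and the wildtype library (open squares), with exact 95% Poisson intervals for counting error, coloured by class. Dusp2 and Dusp4 lie highest in both libraries, and Spry2 lies below 1 RPKM in both.

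Nuclear phosphatases made up most of the group's transcripts. Summed per length, Dusp1, Dusp2, Dusp4 and Dusp5 gave 165 RPKM in the library labelled CREB KO and 154 in the wildtype library, which was 69.1% and 70.0% of the sum over all 10 genes. Dusp6 and Dusp10 together gave 26.6 and 23.7 RPKM, or 11.2% and 10.7%. The Sprouty pair gave 11.8% and 11.9%, and the Spred pair 7.9% and 7.3%. These shares depend on the length used. By reads alone the nuclear class held 60.04% and 61.59%, and the Spred pair 15.12% and 13.95%. The full set of 10 classical MAP kinase phosphatase genes adds Dusp7, Dusp8, Dusp9 and Dusp16. Per length, the nuclear enzymes held 79.2% and 79.6% of that set (73.48% and 74.19% of reads). The cytoplasmic ERK enzymes (Dusp6, Dusp7 and Dusp9) held 15.4% and 14.9%, and those that prefer JNK and p38 (Dusp8, Dusp10 and Dusp16) 5.4% and 5.5%.

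No gene of the group was 1.5-fold or even 1.2-fold apart between the libraries with an interval excluding 1. At the lower limit this depended on the setting for Dusp6, whose ratio reached 1.211 (1.116 to 1.316) with the deeper library thinned to the depth of the other. Over the 10462 genes tested, 2.48% were higher and 1.5% lower by 1.5-fold or more under that rule, and 6.19% higher and 5.48% lower by 1.2-fold or more. Without a fold limit, 5 of the 9 tested genes had an interval above 1, against 16.2% of all genes tested, and 1 had an interval below 1, against 19.5%. Their median log2 ratio was 0.19, beside -0.01 over all genes tested. The genes were chosen with earlier results of these data known, so these counts and medians describe the group and test nothing. The group lay above the middle of all genes in level, with a median of 49.4 CPM against 29.2, and more reads give narrower intervals. The libraries also differed by more than counting error. Over the 6264 genes with 10 to 200 CPM, the range that holds all 9, the SD of log2 ratios was 0.161, whereas counting alone gave a median SD of 0.06. From the 5th to the 95th percentile these genes ran from a ratio of 0.837 to 1.18.

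Among the nuclear phosphatases, Dusp2 and Dusp5 were higher in the library labelled CREB KO, Dusp4 was slightly lower and Dusp1 was level. Dusp2 had 3700 reads in the library labelled CREB KO and 3564 in the wildtype library, which is 154 and 135 CPM and a ratio of 1.14 (1.093 to 1.198). Dusp5 had 1278 and 1205 reads, 53.2 and 45.5 CPM, and a ratio of 1.17 (1.08 to 1.27). For both genes the wildtype library was the lower one. Dusp4, whose product acts on ERK and JNK, had 3481 and 4087 reads, 145 and 155 CPM, and a ratio of 0.939 (0.897 to 0.982). Dusp1, the gene with the full cAMP response element printed above and the prototype of the family, had 1012 and 1120 reads, 42.2 and 42.3 CPM, and a ratio of 0.996 (0.914 to 1.08). Its interval allows a difference of no more than 1.09-fold in either direction from counting alone.

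Of the non-nuclear phosphatases, Dusp6 was higher in the library labelled CREB KO and Dusp10 was not separated. Dusp6 had 1280 and 1182 reads, 53.3 and 44.7 CPM, and a ratio of 1.19 (1.10 to 1.29). This was the highest ratio among the 9 tested genes, and 4.5% of genes at 10 to 200 CPM had a higher one. Dusp10 had 692 and 764 reads, 28.8 and 28.9 CPM, and a ratio of 0.998 (0.899 to 1.11).

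Both Spred genes were higher in the library labelled CREB KO, and the intervals of the Sprouty genes included 1. Spred1 had 956 and 890 reads, 39.8 and 33.6 CPM, and a ratio of 1.18 (1.08 to 1.30). Spred2 had 1429 and 1369 reads, 59.5 and 51.8 CPM, and a ratio of 1.15 (1.07 to 1.24). Spry1 had 1922 and 1996 reads, 80.1 and 75.4 CPM, and a ratio of 1.06 (0.996 to 1.13). Its interval lay just above 1 with total-count scaling (1.067, 1.002 to 1.137) and with thinning (1.073, 1.005 to 1.145). With 25 and 20 reads, Spry2 had a ratio of 1.37 that allows either direction (0.735 to 2.62). Dusp6 and, by a narrow margin, Spred1 lay just beyond the 95th percentile of genes at 10 to 200 CPM, and the other 7 tested genes lay between the 5th and the 95th.

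**Figure D2:**
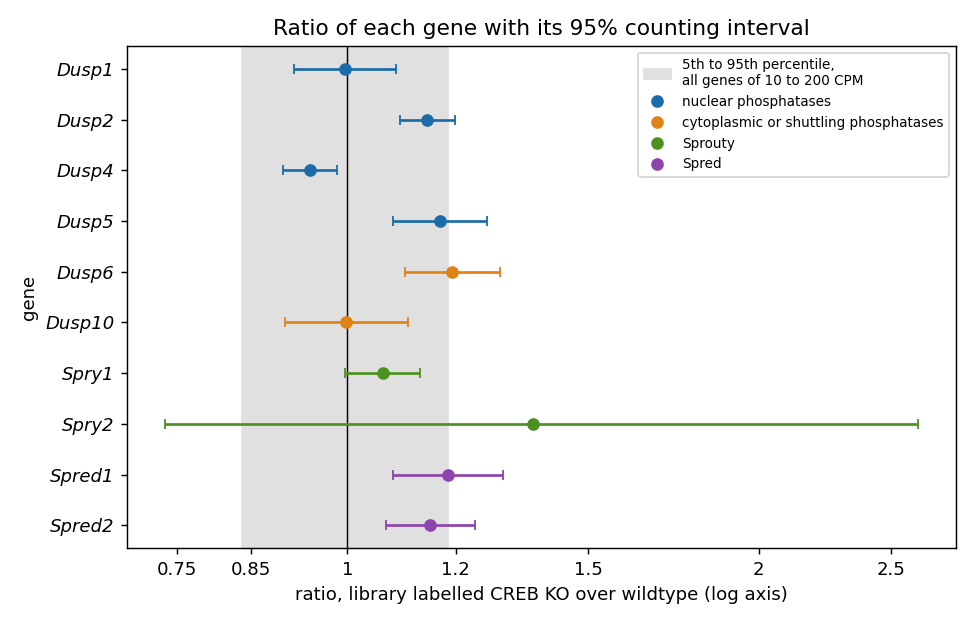
Ratio of the library labelled CREB KO over wildtype for each gene (log axis) with its exact 95% interval for counting error, and in grey the range from the 5th to the 95th percentile of all genes of 10 to 200 CPM, 0.837 to 1.18. Dusp2, Dusp5, Dusp6, Spred1 and Spred2 have intervals above 1 and Dusp4 below 1, while the interval of Spry2 (0.735 to 2.62) is the widest.

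**Figure D3:**
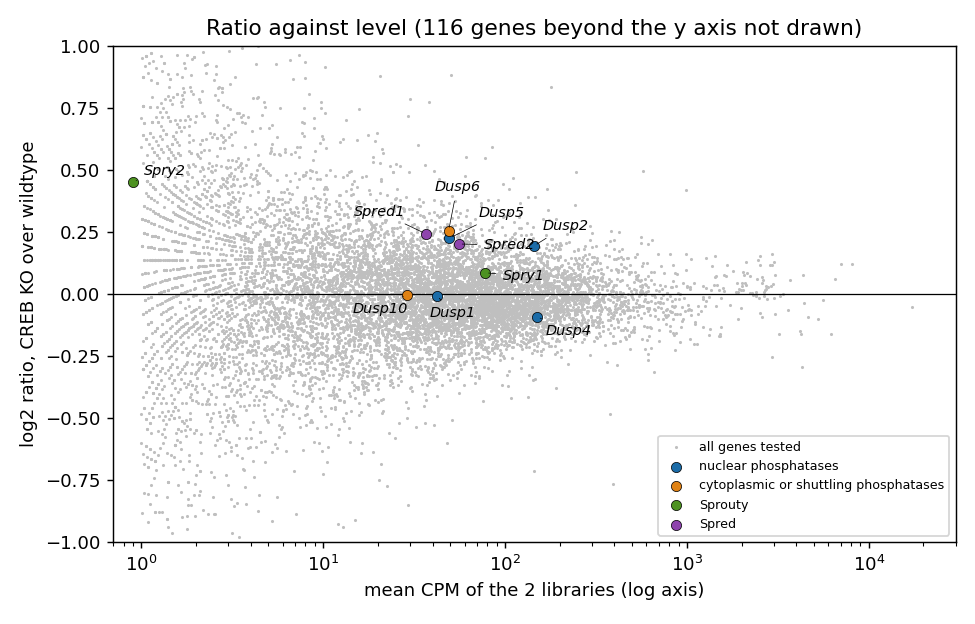
Log2 ratio against mean CPM of both libraries (log axis) for all genes tested (grey) and for the 10 genes of the group (coloured by class). The 9 tested members lie between -0.09 and 0.25 inside the cloud, Spry2 lies at the low-count edge, and 116 genes beyond the y axis are not drawn.

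By class, the Spred pair had the highest summed ratio and the nuclear phosphatases the lowest. Summed reads were 9471 and 9976 for the nuclear phosphatases, a ratio of 1.05 (1.02 to 1.08). They were 1972 and 1946 for Dusp6 and Dusp10, a ratio of 1.12 (1.05 to 1.19). For the Sprouty pair they were 1947 and 2016, with a ratio of 1.06 (0.9997 to 1.13), and for the Spred pair 2385 and 2259, with a ratio of 1.16 (1.10 to 1.23). Sums follow the member with most reads, and the ratio for Dusp6 alone was 1.19, above that of the pair.

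Classes were compared through the ratio of their reads inside each library, in which library scaling cancels. The library labelled CREB KO held 4.803 nuclear reads for each read of Dusp6 or Dusp10, and the wildtype library 5.13, a ratio of ratios of 0.937 with an interval that includes 1 (0.874 to 1.004). The interval lay below 1 without Dusp10 (0.877, 0.805 to 0.954) and with thinning (0.929, 0.865 to 0.997). The value turned on single genes: without Dusp4 and Dusp6, which have the highest mean CPM over both libraries in their classes, it was 1.12 (1.006 to 1.25), and without Dusp2 and Dusp6, a choice made after the data were seen, it was 0.994 (0.8899 to 1.11). Against the Spred pair the nuclear class was lower in the library labelled CREB KO, at 3.97 reads for each Spred read against 4.42 (0.899, 0.843 to 0.959). Without the gene of highest mean CPM in each class this was 0.947 with an interval that includes 1 (0.857 to 1.046). The Sprouty pair was also lower against the Spred pair (0.915, 0.840 to 0.997), though with thinning the interval reached past 1 (0.9225, 0.845 to 1.008). The other comparisons of classes, nuclear against Sprouty (0.983, 0.918 to 1.05), cytoplasmic or shuttling against Sprouty (1.05, 0.960 to 1.15) and cytoplasmic or shuttling against Spred (0.960, 0.881 to 1.05), had intervals that include 1. Without Dusp10, the value against Sprouty was 1.12 (1.013 to 1.24). With Dusp10 and Spred1 alone, the value of cytoplasmic or shuttling against Spred was 0.843 (0.733 to 0.970). All phosphatases against all Sprouty and Spred genes gave 0.947 (0.901 to 0.996), and 0.961 with an interval that includes 1 (0.8998 to 1.026) without the gene of highest mean CPM on each side.

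Some genes of the same class also differed from each other in ratio by more than counting error. Of the 45 pairs of genes, 17 had a ratio of ratios whose interval excluded 1, with no adjustment for the number of pairs. All 15 pairs that set one of Dusp2, Dusp5, Dusp6, Spred1 and Spred2 against one of Dusp1, Dusp4 and Dusp10 were among them, with differences of 1.15-fold to 1.27-fold. No interval excluded 1 for the 10 pairs inside the first set (at most 1.04-fold) or the 3 pairs inside the second (at most 1.06-fold). The sets were formed after the ratios had been seen, and sorting genes by their ratios by itself favours such counts, so they describe the libraries and test nothing. The remaining 2 pairs set Spry1 against Dusp4 and against Dusp6. The same share over pairs of all genes was not computed. Log2 ratios of genes at 10 to 200 CPM had an SD of 0.161, against a median of 0.06 from counting. Intervals of counting error alone can thus exclude 1 for many pairs of genes outside the group. Each phosphatase class was divided: Dusp2 and Dusp5 fell in one set and Dusp1 and Dusp4 in the other, as did Dusp6 and Dusp10.

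The largest of these contrasts set Dusp4 against Dusp6, with 2.72 Dusp4 reads for each Dusp6 read in the library labelled CREB KO and 3.46 in the wildtype library (0.786, 0.717 to 0.862). The leading pair changed places in read number. Dusp2 had 1.06 reads for each Dusp4 read in the library labelled CREB KO and 0.872 in the wildtype library, a ratio of ratios of 1.22 (1.14 to 1.30). Per length Dusp2 was first in both, by 1.45-fold (1.39 to 1.52) and 1.19-fold (1.14 to 1.25). Dusp6 against Dusp10, the non-nuclear pair, gave 1.85 and 1.55 reads (1.196, 1.05 to 1.36).

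**Figure D4:**
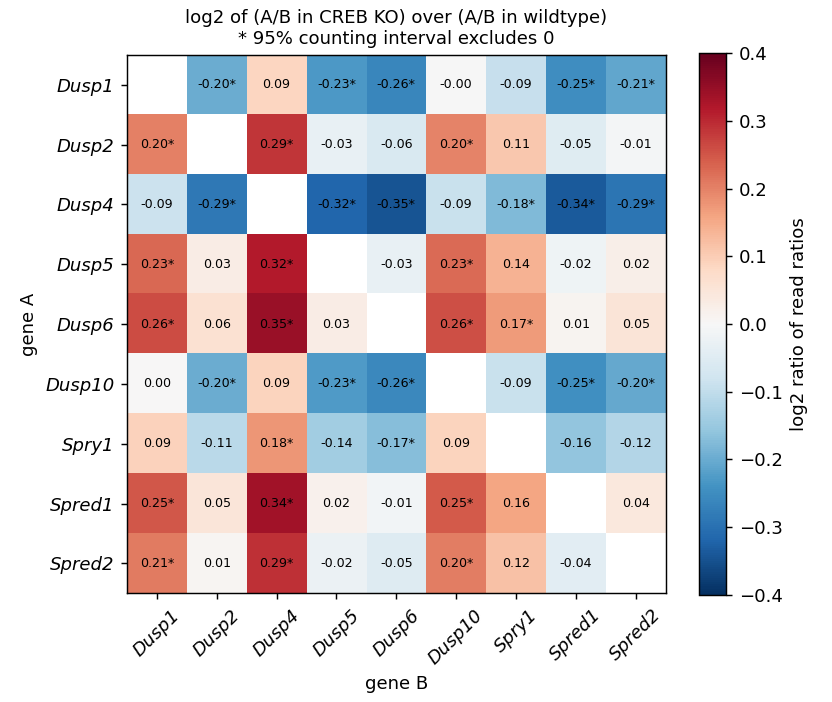
Log2 ratio of read ratios for each pair of the 9 tested genes: gene A over gene B in the library labelled CREB KO, divided by the same in the wildtype library; a star marks a 95% counting interval that excludes 0. The 15 starred pairs that join Dusp2, Dusp5, Dusp6, Spred1 or Spred2 with Dusp1, Dusp4 or Dusp10 form the coloured blocks, and Dusp4 against Dusp6 is farthest from 0, at -0.35.

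Among the other genes of the family, the remaining phosphatases went both ways. Of 9 other dual specificity phosphatase genes, 8 were tested, 1 was higher and 1 lower at the 1.2-fold limit, and the median log2 ratio was 0.09. The lower gene was Dusp3, a small phosphatase without a MAP kinase docking domain, with 224 and 327 reads and a ratio of 0.755 (0.634 to 0.898). The higher gene was Dusp8, a phosphatase of JNK and p38, with 106 and 71 reads and a ratio of 1.64 (1.21 to 2.26), the only 1 past 1.5-fold. It lay under the level set for naming and is given after its value was seen. Dusp14 had 643 and 623 reads (1.14, 1.02 to 1.27), and Dusp19 had 258 and 257 (1.11, 0.927 to 1.32). Of the 3 other Sprouty family genes only Spred3 was tested, with 390 and 370 reads and a ratio of 1.16 (1.005 to 1.34), the same direction as Spred1 and Spred2.

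Few genes of the cascades that these proteins restrain lay far from 1. Of 10 tested ERK cascade genes, 0 passed 1.2-fold in either direction (median -0.02), while 4 had an interval below 1 and 0 above. Nras had 4725 and 5685 reads (0.916, 0.881 to 0.952) and the Raf kinase gene Braf 1174 and 1402 (0.923, 0.853 to 0.998). Of 11 tested genes of the p38 and JNK cascades, 0 passed 1.2-fold in either direction and the median was 0.07. The p38 gene Mapk11 had 1363 and 1366 reads (1.10, 1.02 to 1.19), the p38-activating kinase gene Map2k6 947 and 956 (1.09, 0.997 to 1.196) and Map3k1 2129 and 2231 (1.05, 0.991 to 1.12). The JNK-activating kinase gene Map2k7, named after its value was seen, was farther out but had few reads, 83 and 69 (1.32, 0.952 to 1.85).

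Of 9 tested Ras exchange factor and GTPase-activating genes, Rasgrp1 was higher by 1.2-fold or more, 0 were lower and the median was 0.02. Rasgrp1, the Ras exchange factor that T cells use downstream of the receptor, had 2962 and 2671 reads (1.22, 1.16 to 1.29). Rasa3, a Ras inactivator, had 1570 and 1528 (1.13, 1.06 to 1.22), and the exchange factor gene Sos1 had 739 and 899 (0.906, 0.821 to 0.9997). Of 10 tested genes induced by ERK signalling, 2 were higher and 1 lower by 1.2-fold or more, 6 had an interval above 1 and 1 below, and the median was 0.09. Etv5, an ETS factor gene, had 339 and 283 reads (1.32, 1.12 to 1.55), Egr2 had 1991 and 1894 (1.16, 1.09 to 1.24) and Fos was lower, with 423 and 651 (0.716, 0.632 to 0.811). Fosl1, named after its value was seen, was the other higher gene, with 143 and 113 reads (1.39, 1.08 to 1.80).

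**Figure D5:**
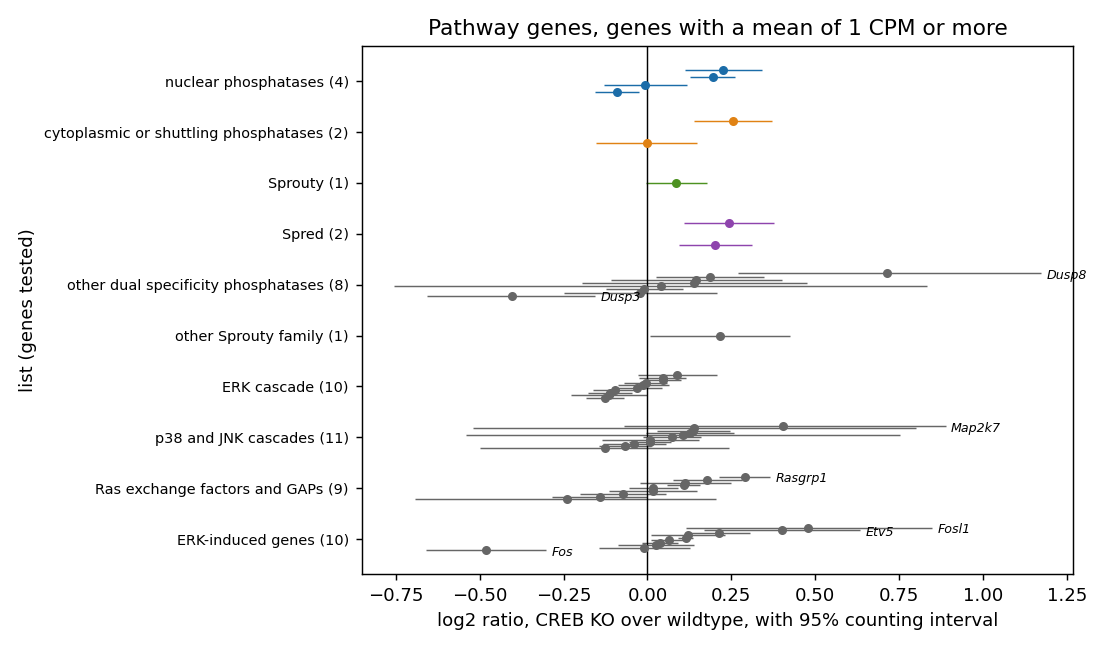
Log2 ratio of the library labelled CREB KO over wildtype for each tested gene of the 4 classes (coloured) and 6 further pathway lists (grey), with 95% counting intervals and the number of genes tested beside each list. The ERK cascade genes lie close to 0, while Fos, Dusp3, Dusp8, Rasgrp1, Etv5, Fosl1 and, with an interval that includes 0, Map2k7 lie farther out.

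Over the tested genes that had a promoter at hand, those with and without these promoter motifs had medians close together. The 301 tested genes with TGACGTCA in a promoter had a median log2 ratio of -0.02, and 3.65% were higher and 6.64% lower by 1.2-fold or more. The 7611 tested genes whose promoters lacked it had a median of -0.01, with 5.89% higher and 5.35% lower. For TGACG the medians were -0.017 over 2909 genes with it and -0.001 over 5003 without. For the CArG box, which Dusp5 holds, they were -0.008 over 108 genes and -0.007 over 7804. Counts of Dusp5 and Spry1 may share reads with genes annotated on the opposite strand, over 547 and 710 exon bases, if strand was ignored in counting. Dusp1 shares 11 exon bases with Ergic1 on the opposite strand.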

How the data were processed

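The authors deposited 1 table per library that gives each gene symbol its raw count of uniquely placed reads, per the file headers. bcl2fastq, HTSeq and the build mm10 are named, per the submitters' processing notes. For the aligner, annotation and strand setting, the sources used here give nothing. Unlisted genes were taken as 0 reads.

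Libraries were scaled by TMM (edgeR 4.0.16, R 4.3.3), with a prior count of 0.5. The quasi-likelihood test of edgeR needs replicates and could not be fitted to 1 library per group. Ratios carry exact conditional binomial (Clopper-Pearson) 95% intervals, reads and RPKM exact Poisson intervals, and ratios of ratios exact conditional odds ratio intervals. Genes averaging at least 1 CPM were tested, where CPM is computed here from the scaled counts. RPKM used unscaled totals and the union of GENCODE M21 exons. The protein motif search was not run, and coding lengths came from GENCODE. Names cover all 10 genes and, per pathway list, up to 3 genes of 10 CPM or more farthest from a ratio of 1, of which some are not reported here. The members and lists were chosen with earlier results of these data known.

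On counts simulated for 15574 genes with counting error only, intervals held the true ratio for 95.6% of unchanged genes. The 1.5-fold rule recovered 22 of 50 genes simulated at 1.5-fold and 50 of 50 at 2-fold, and it took 56 of 10260 unchanged genes. The 1.2-fold rule recovered 25 of 50 genes simulated at 1.2-fold and 50 of 50 at 1.5-fold, and it took 148 of 10260 unchanged genes. The real libraries differed by more than counting error, so these shares do not carry over to them. Alternatives were scaling by total counts, upper quartiles or DESeq2 1.42.0 size factors, a prior count of 5, thinning, other filters and fold limits, and other lengths. Python 3.11.15, scipy 1.17.1 and matplotlib 3.10.9 were used.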

Additional observations from a re-analysis of the deposited data

How the results depend on the processing

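No paired analysis was possible because each genotype has 1 library, and for the same reason no library could be left out. Each of the 10 gene ratios stayed inside its own interval under total-count, DESeq2 and upper-quartile scaling, a prior count of 5 and thinning. This was a weak check, since TMM shifted log2 ratios by only -0.0077 from total counts and thinning reuses the same reads. The count of the group's genes past 1.5-fold was 0 in each direction, and also 0 under every alternative run. At 1.2-fold, an added check, 0 became 1 higher (Dusp6) with thinning and stayed 0 under the other scalings and prior count. The interval of Spry1 came to exclude 1 with total counts and with thinning. Pathway genes past 1.5-fold numbered 1 higher and 0 lower, with 2 higher without the level filter, 0 higher at 10 CPM, 0 higher at 2-fold, and 4 higher and 2 lower at 1.2-fold. Over all genes, 259 higher and 157 lower became 521 and 300 without the filter, 23 and 17 at 10 CPM, 648 and 573 at 1.2-fold and 70 and 46 at 2-fold. The summed ratio of Dusp6 and Dusp10 went from 1.12 to 1.19 without Dusp10, and that of the Sprouty pair from 1.06 to 1.21 as the median of its members, since Spry2 then weighs as much as Spry1. Without the gene of highest mean CPM in each class, nuclear over cytoplasmic or shuttling phosphatases went from 0.937 to 1.12 (1.006 to 1.25), so the direction turned once Dusp4 and Dusp6 were left out. With Dusp2 left out in place of Dusp4, chosen after seeing the data, it was 0.994 (0.8899 to 1.11), nuclear over Sprouty was 0.72 and nuclear over Spred 0.838. Without the gene of highest mean CPM in each class, nuclear over Sprouty was 0.814, cytoplasmic or shuttling over Sprouty 0.725, cytoplasmic or shuttling over Spred 0.843 and Sprouty over Spred 1.16, and the Sprouty values then rest on 25 and 20 reads. With coding lengths, 6 of 10 genes in the library labelled CREB KO and 4 in the wildtype library kept their place in the order of levels. With principal transcript lengths, chosen after seeing the data, 6 kept it in the wildtype library. Depth limits Spry2 most.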
